A study of Arabidopsis thaliana with 12 samples.

Results

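A set of 172 probe sets, of 22746 on the array that are not controls, gave far higher signal on every array labelled wild type than on any array labelled ago1-27 in Arabidopsis thaliana leaves. A probe set belonged when its lowest log2 signal on the 6 wild-type arrays exceeded its highest on the 6 ago1-27 arrays by at least 2, which is a 4-fold distance between the nearest arrays. In all, 182 probe sets met that rule, or 0.8% of those on the array, and 10 of these, 8 of them well known in the low-oxygen response, were then set aside. The same rule turned round, for probe sets far higher on every ago1-27 array, was met by 28, or 0.123%. Of the 172, 88 are assigned to 1 gene, 3 to several and 81 to none in the annotation used here, so fewer than 6 in 10 can be given a gene name. The members were chosen on the genotype difference itself, so every value of that difference for a member is a description. Where gene lists are counted by a fit across all probe sets, the members among them are counted too, and nothing is read from those.

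The ago1-27 plants carry a hypomorphic allele of ARGONAUTE1, the main effector of plant microRNAs, which it loads to find and silence matching transcripts, and the other plants were Col-0 wild type. Plants of both genotypes were 4 weeks old and grown in soil, and were either submerged for 12 h in the dark, under 10 cm of water above the leaves, or kept in the dark for 12 h. Each of the 4 groups, submerged ago1-27, dark ago1-27, submerged wild type and dark wild type, has 3 biological replicates, and each replicate pooled leaves of 4 plants on 1 ATH1 array. All 12 arrays therefore come from plants held in darkness, and none from plants in the light.

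Plants sense falling oxygen through transcription factors of the ethylene response factor group VII, which are destroyed while oxygen is present and persist when it is short. They switch on a small set of core genes for fermentation, calcium signalling and oxygen-consuming or oxygen-sensing proteins, along with many genes of unknown function. In leaves under water, slow gas diffusion and darkness together lower internal oxygen. Transcripts of the core set are usually scarce in aerated leaves and accumulate when oxygen falls.

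Arrays are named as labelled, and no probe set used here is annotated to AGO1, so the genotype could not be checked on the mutated gene. The Affymetrix control probe set AFFX-r2-At-U12639_at gave 9.31 to 23.6 in submerged ago1-27 and 26930 to 29111 in dark ago1-27. In wild type it gave 1.74 to 44.7 submerged and 24471 to 29779 dark. It thus split the arrays by treatment label within each genotype label, and the reason for that split was not tested. Most named core low-oxygen transcripts, usually scarce in aerated leaves, were high on dark as well as submerged wild-type arrays, and low on both kinds of ago1-27 arrays. Whether any label is mistaken was not tested, and every genotype and treatment value below rests on the labels. Signals are linear and were scaled to a trimmed mean of 500 on every array, with medians of 134 to 207. Along the first principal component, with 68.2% of the variance, arrays separated by genotype label. Replicate 3 of submerged ago1-27 and replicate 1 of dark wild type stood apart, with mean correlations of 0.935 and 0.937 with their group mates, and counts that rest on them are given without them too. The ratio of 3′ to 5′ GAPDH signal, a measure of RNA integrity, was 1.95 ± 0.24 on ago1-27 arrays and 1.35 ± 0.11 on wild-type arrays (SD, n = 6 each), with ranges that did not overlap. The actin ratio was 11.4 ± 0.99 in submerged ago1-27 and 6.30 ± 0.63 in submerged wild type, and 8.02 ± 0.86 in dark ago1-27 and 7.95 ± 0.48 in dark wild type (SD, n = 3 each). The part of either ratio in the genotype differences was not tested. The 3 named leaf genes, LHCB4.2, RCA and PSAN, were bright on all arrays, with summed signals of 60904 to 74303 (submerged ago1-27), 62463 to 69383 (dark ago1-27), 35908 to 40992 (submerged wild type) and 25322 to 31946 (dark wild type). Of 5 named root marker genes, 4 lay below the low-signal limit on all arrays, and PYK10 was the exception, while the 1 named flower and seed marker lay below it on all arrays. In pooled leaves, fewer cells of a type and less RNA per cell cannot be told apart.

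The members were mostly near or below the reach of the array in ago1-27 and bright in wild type. The median of the members' mean signals was 78.1 in submerged ago1-27 and 86.4 in dark ago1-27, against 1788 in submerged wild type and 2059 in dark wild type. Each array's 40th percentile, 72.0 to 120.3, served as a low-signal limit. By it, 69 members lay below the limit on all 6 ago1-27 arrays, 48 on some and 55 on none, whereas 6 lay below it on any wild-type array. In wild type 96 members, or 55.8%, ranked in the top 10% of all signals, and 14 in the top 1%.

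Folds compare mean log2 signals, turned back to a linear ratio, and were measured where at least 1 ago1-27 array of a condition exceeded its limit. Under submergence 90 members were so measured, and their signal was a median of 14.0-fold lower in ago1-27 than in wild type, over a range of 4.95 to 553. In the dark the 97 measured members were a median of 15.5-fold lower, over a range of 5.32 to 253. Where all 3 ago1-27 arrays lay below the limit, the fold is a bound against that limit. The bound was at least 7.05-fold lower at the median of 80 members under submergence and at least 6.71-fold at the median of 73 in the dark, and 2 members had no fold in each condition. Below the limit, signals have no dependable order, and some measured folds, the highest included, rest on ago1-27 groups with 1 or 2 arrays below it. On the log2 scale, the median over tested members was -4.35 under submergence and -4.25 in the dark, against 0.17 for all tested probe sets in both conditions. Centring each array on its median moved those all-probe-set medians to -0.04 and -0.01, and the members' medians to -4.56 and -4.44.

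**Figure D1:**
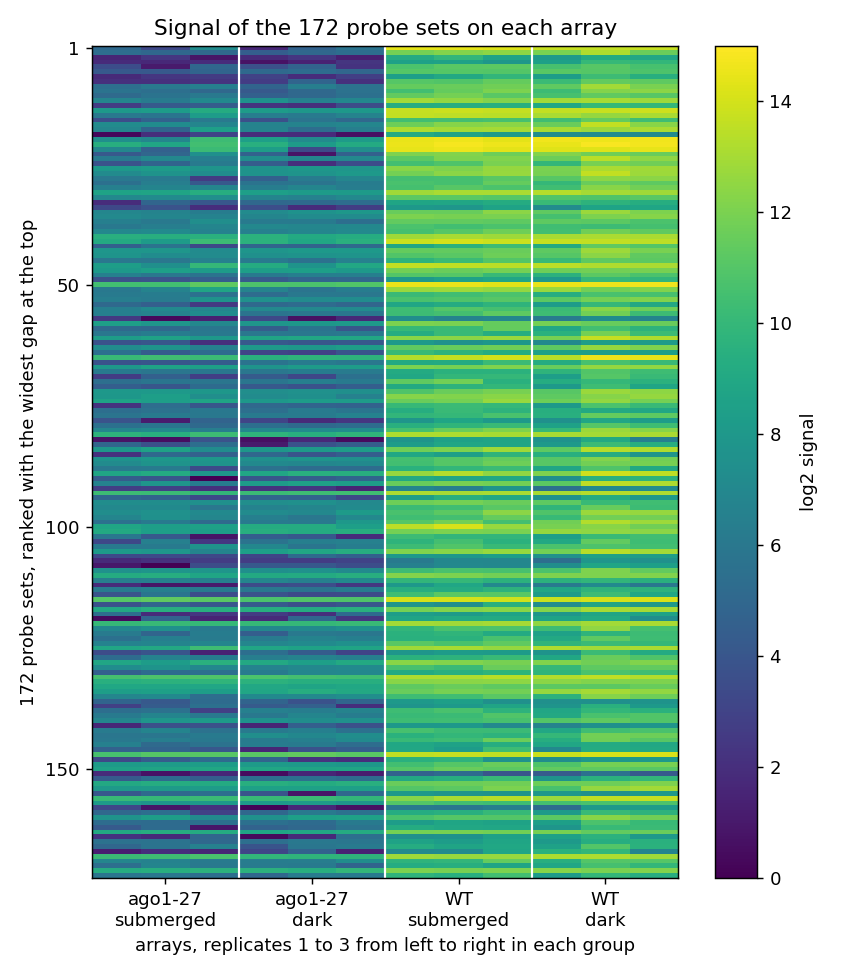
Log2 signal of the 172 probe sets (rows, ranked by gap) on the 12 arrays (columns, grouped as submerged ago1-27, dark ago1-27, submerged wild type and dark wild type, with replicates 1 to 3 from left to right). Colour runs from dark (0 or below) to bright, and the 6 wild-type columns are brighter than the 6 ago1-27 columns in every row, as the selection requires.

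The gap between the lowest wild-type and the highest ago1-27 array had a median of 2.66 and reached 6.36. It was at least 3 for 55 members, at least 4 for 23, at least 5 for 8 and at least 6 for 2. The 12 arrays set it unequally. On the ago1-27 side, replicate 3 of the submerged group held the highest value for 50 members, or 29.1%, against 38.6% of all probe sets. The lowest wild-type value came from replicate 1 of dark wild type for 85 members, or 49.4%, against 14.5% of all probe sets. The highest wild-type value came from replicate 2 of the same group for 82 members, or 47.7%, against 14.7% of all. Per-array medians over members were 69.6, 79.5 and 77.3 in submerged ago1-27 and 75.7, 82.5 and 92.9 in dark ago1-27, against 1420, 1652 and 2119 in submerged wild type and 1193, 2705 and 2119 in dark wild type. The dark wild-type group thus held both the lowest and the highest of the wild-type medians.

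Membership has no natural edge at a gap of 2. Just inside lay WRKY6, a transcription factor of defence and leaf senescence, at 2.01, AT1G26270 at 2.00 and AT3G02840 at 2.00. Just outside lay AT1G72940 at 1.99, the unnamed 252825_at at 1.98 and AT5G54720 at 1.98. WRKY6 gave 44.1, 108 and 67.2 on submerged ago1-27 arrays and 75.4, 70.0 and 28.7 on dark ones, against 629, 671 and 436 on submerged wild-type arrays and 477, 1497 and 962 on dark ones. AT3G02840 gave 57.1, 61.0 and 42.6 on submerged ago1-27 arrays and 32.4, 74.7 and 72.4 on dark ones, against 850.2, 716 and 1395 on submerged wild-type arrays and 299, 958 and 663 on dark ones. Signals just outside covered similar ranges. 252825_at gave 87.8, 117 and 75.3 on submerged ago1-27 arrays and 145, 141 and 149 on dark ones, against 605, 709 and 903 on submerged wild-type arrays and 590.4, 2157 and 1403 on dark ones. AT1G72940 gave 469.5, 454 and 231 on submerged ago1-27 arrays and 414, 449.9 and 411 on dark ones, against 3326, 3061 and 3623 on submerged wild-type arrays and 1868, 3093 and 3596 on dark ones. AT5G54720 gave 59.5, 99.9 and 65.7 on submerged ago1-27 arrays and 93.8, 86.7 and 83.4 on dark ones, against 532, 394 and 722 on submerged wild-type arrays and 409, 838 and 783 on dark ones.

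**Figure D2:**
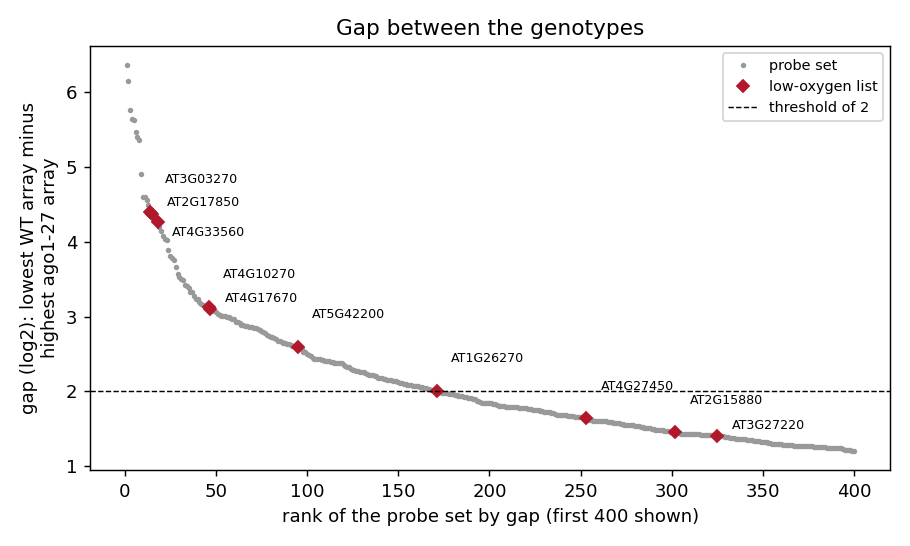
Gap on the log2 scale (vertical axis, lowest wild-type minus highest ago1-27 array) against rank by gap (horizontal axis), one point per probe set, with the genes set aside left out. Diamonds mark genes of the low-oxygen list, and 7 of them lie at or above the dashed threshold of 2, between 2.00 and 4.39.

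Low-oxygen genes stand on both sides of the threshold. A list of 48 core low-oxygen genes, written from general knowledge, has 22 named on the array. Of these, 7 are members, 8 are among the genes set aside that met the rule, and 7 did not meet it. Of the 7 that did not meet the rule, all but AT3G10020 were lower in ago1-27 than in wild type in both conditions (limma, adjusted p under 0.05). The selection fixed the calls of the other 15 in advance. With them, 21 of the 22 were lower under submergence and 21 in the dark, and none was higher. The background is 17.8% of tested probe sets lower under submergence and 20.8% in the dark, with 44.5% and 52.9% called in either direction. The median log2 difference of the list was -4.81 under submergence and -4.63 in the dark. Because the members and the set-aside genes that met the rule were chosen on this difference, nothing is read from the counts or medians over all 22.

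The brightest of the 7 list members was AT3G03270, known as HRU1, a universal stress protein linked to hydrogen peroxide production under low oxygen. Its signal was 269.9, 317 and 603 in submerged ago1-27 and 303, 249 and 252 in dark ago1-27, against 13070, 14259 and 13251 in submerged wild type and 12683, 13435 and 14714 in dark wild type. It was 36.3-fold lower in ago1-27 under submergence and 50.8-fold lower in the dark, and the dark and submerged wild-type arrays overlapped. AT2G17850, a rhodanese-like protein, gave 66.1, 56.6 and 311 in submerged ago1-27 and 82.5, 73.4 and 104 in dark ago1-27, against 12775, 11501 and 10990 in submerged wild type and 8693, 6448 and 8806 in dark wild type. Its submerged wild-type arrays all exceeded the dark ones, but the log2 change of 0.57 ± 0.47 (SE, limma adjusted p = 0.52) did not pass the test.

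AT4G33560 and AT4G10270 belong to the family of small wound-responsive proteins, whose biochemical role is unknown. AT4G33560 gave 117, 28.2 and 359 in submerged ago1-27 and 104, 40.7 and 86.9 in dark ago1-27, against 9287, 7822 and 8023 in submerged wild type and 8258, 6900 and 8683 in dark wild type. AT4G10270 gave 333, 181 and 1015 in submerged ago1-27 and 591, 210.1 and 518 in dark ago1-27, against 12539, 11972 and 11046 in submerged wild type and 10950, 9639 and 8890 in dark wild type. They were 78.9-fold and 30.1-fold lower in ago1-27 under submergence. For these 2 genes, AT3G03270 and AT2G17850, the highest ago1-27 value came from replicate 3 of the submerged group, the array that stands apart.

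AT4G17670, an FCS-like zinc finger protein of the family that interacts with the energy-sensing kinase SnRK1, was steadier. It gave 278, 353 and 299 in submerged ago1-27 and 338, 348 and 266 in dark ago1-27, against 3536, 3010 and 3681 in submerged wild type and 3283, 3627 and 3953 in dark wild type. AT1G26270, of the phosphatidylinositol kinase family, gave 632, 677 and 802 in submerged ago1-27 and 785, 671 and 976 in dark ago1-27, against 4152, 3913 and 4140 in submerged wild type and 4987, 4110 and 4490 in dark wild type. Both were lower in ago1-27 by a similar factor in each condition, 11-fold and 5.81-fold under submergence and 11.5-fold and 5.64-fold in the dark.

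AT5G42200, a RING-type ubiquitin ligase, was the 1 list member whose signal changed with submergence. It gave 165, 166 and 185 in submerged ago1-27 and 169, 186 and 135 in dark ago1-27, against 3261, 3718 and 3031 in submerged wild type and 2483, 1121 and 1347 in dark wild type. In ago1-27 the log2 change with submergence was 0.08 ± 0.24 (SE, limma adjusted p = 0.86). In wild type it rose by 1.10 ± 0.24 (limma adjusted p = 0.019), and every submerged array exceeded every dark one. The difference between genotypes in that change, -1.01 ± 0.34, did not pass (limma adjusted p = 0.20). Without the 2 arrays that stand apart it was -1.41 ± 0.22 and passed (limma adjusted p = 0.0053). The wild-type call was lost without replicate 1 or 2 of submerged wild type or replicate 2 or 3 of dark wild type, with limma adjusted p of 0.071 to 0.075, and with the ago1-27 arrays left out of the fit (limma adjusted p = 0.080).

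Other low-oxygen genes shared the direction without reaching the threshold. AT4G27450, an aluminium-induced protein family member, had a gap of 1.64 and gave 4463, 3545 and 4239 in submerged ago1-27 and 6117, 7302 and 8013 in dark ago1-27, against 25748, 27659 and 24935 in submerged wild type and 25338, 27851 and 25819 in dark wild type. AT3G27220, a kelch-repeat protein, had a gap of 1.40 and gave 98.7, 101 and 456 in submerged ago1-27 and 159, 45.7 and 217 in dark ago1-27, against 2064, 2007 and 2194 in submerged wild type and 1932, 1206 and 1316 in dark wild type. AT4G17260, lactate dehydrogenase, had a gap of 1.09 and gave 249, 229 and 761 in submerged ago1-27 and 341, 169.5 and 239 in dark ago1-27, against 2154, 2511 and 2518 in submerged wild type and 1646, 3420 and 1614 in dark wild type. In each of these 3 genes the genotypes were apart on every array. AT2G15880, a leucine-rich repeat extensin family member, had a gap of 1.45 and means of 60.6 and 71.1 in submerged and dark ago1-27, against 320.4 and 645 in submerged and dark wild type. AT5G44730, of the haloacid dehalogenase-like family, had a gap of 0.30 and means of 243 and 200.1 in submerged and dark ago1-27, against 979 and 719 in submerged and dark wild type. AT3G10020, of unknown function, was the exception on the list: it gave 789, 703 and 608 in submerged ago1-27 and 1497, 1406 and 1819 in dark ago1-27, against 392, 573 and 1034 in submerged wild type and 2260, 1776 and 602 in dark wild type. Its genotypes overlapped, with log2 differences of 0.18 ± 0.42 under submergence and 0.22 ± 0.42 in the dark (SE).

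**Figure D3:**
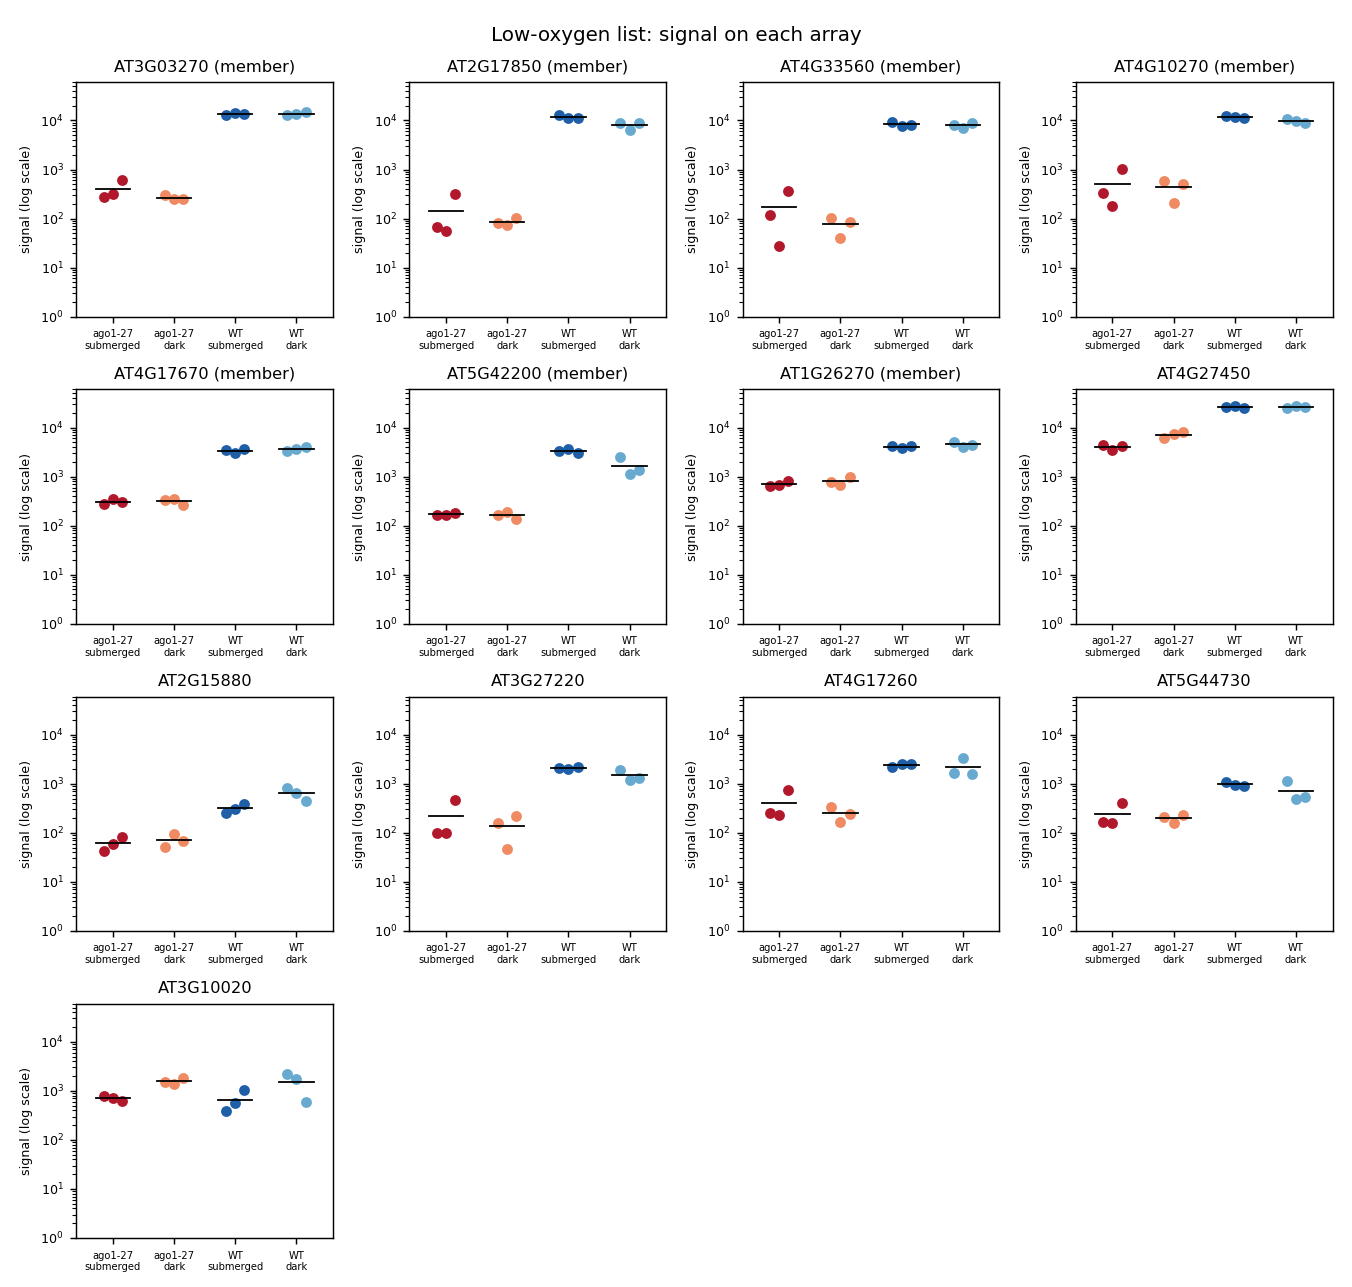
Signal (log scale) on each array for the 7 members on the low-oxygen list and 6 further genes of the list, with points for the 3 replicates and lines for group means. In every panel but that of AT3G10020 the wild-type points lie above the ago1-27 points, in the dark as well as under submergence.

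Within a genotype, submergence calls on the list are given beside those of all tested probe sets. The background is 8.38% of all tested called in ago1-27, with 4.19% of all tested lower, and 7.08% called in wild type, with 4.71% higher. Among its 22 genes, AT4G27450 (-0.81 ± 0.12, limma adjusted p = 0.0030) and AT1G33055 (-0.92 ± 0.22, limma adjusted p = 0.027) fell in ago1-27, and AT5G42200 rose in wild type. The 7 members had log2 changes of -0.19 to 0.56 in ago1-27 and -0.15 to 1.10 in wild type. Their mean signals in wild type were 3337 to 13526 under submergence and 1650 to 13611 in the dark. In AT2G17850, AT4G10270 and AT5G42200 every submerged wild-type array exceeded every dark one, and in the other 4 the groups overlapped. The same held for 12.1% of all probe sets that are not controls, and nothing is read from so few genes. No array of plants in the light was analysed here.

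Among members, the widest gaps belonged to probe sets with and without a gene name, and those without are given first. Some of the genes set aside had wider gaps. The widest, 253416_at, gave 34.3, 9.43 and 153 in submerged ago1-27 and 3.22, 26.3 and 52.6 in dark ago1-27, against 21022, 21398 and 18602 in submerged wild type and 13369, 12538 and 13182 in dark wild type. It was at least 145-fold lower in ago1-27 in the dark. Under submergence the ratio of means was 553, but 2 of the 3 ago1-27 arrays lay below the limit, so that ratio is imprecise. 263231_at gave 40.5, 32.6 and 33.5 in submerged ago1-27 and 22.5, 32.9 and 42.8 in dark ago1-27, against 3791, 4847 and 5675 in submerged wild type and 3983, 9682 and 3042 in dark wild type. 245173_at gave 11.5, 2.15 and 31.9 in submerged ago1-27 and 12.5, 27.0 and 4.68 in dark ago1-27, against 1692, 2249 and 2396 in submerged wild type and 1573, 2192 and 1620 in dark wild type. Both were below the limit on all 6 ago1-27 arrays.

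262518_at gave 45.3, 67.9 and 87.8 in submerged ago1-27 and 28.2, 85.9 and 49.6 in dark ago1-27, against 2779, 3054 and 3403 in submerged wild type and 2626, 7754 and 4022 in dark wild type. 267024_s_at gave 37.1, 52.2 and 66.0 in submerged ago1-27 and 24.5, 33.3 and 46.0 in dark ago1-27, against 2654, 3708 and 2333 in submerged wild type and 1595, 2543 and 2170 in dark wild type. 266364_at gave 114, 75.6 and 137 in submerged ago1-27 and 204, 97.6 and 125 in dark ago1-27, against 7772, 6157 and 4788 in submerged wild type and 7881, 8281 and 7014 in dark wild type. The last was 57.8-fold lower in ago1-27 under submergence and 56.9-fold lower in the dark, one of the closest matches between conditions. A suffix of _s_at or _x_at, carried by 10 members, marks probes that can bind transcripts of more than 1 gene.

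Of the 12 widest gaps, 5 belong to named genes, of which UGT73B4 is given with its group. AT4G30380, a Barwin-related protein, gave 2.89, 5.19 and 1.79 in submerged ago1-27 and 3.51, 5.22 and 2.51 in dark ago1-27, against 576, 939 and 416 in submerged wild type and 283, 566 and 475 in dark wild type. LCR67, a plant defensin, gave 3.6, 3.37 and 3.75 in submerged ago1-27 and 1.69, 2.65 and 4.96 in dark ago1-27, against 364, 376 and 247 in submerged wild type and 362, 1053 and 964 in dark wild type. Their wild-type signals were moderate, so the bounds are small: at least 6.11-fold and 3.25-fold lower in ago1-27 under submergence.

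AT2G22880, a VQ-motif protein of a family that binds WRKY transcription factors, gave 4.18, 4.15 and 4.78 in submerged ago1-27 and 6.30, 28.7 and 4.30 in dark ago1-27, against 2118, 1955 and 2754 in submerged wild type and 1177, 2688 and 2484 in dark wild type. AT1G63530, of unknown function, gave 51.7, 44.7 and 33.9 in submerged ago1-27 and 17.9, 34.2 and 51.2 in dark ago1-27, against 1388, 2773 and 4208 in submerged wild type and 1248, 4817 and 5478 in dark wild type. They were at least 22.6-fold and 25.4-fold lower in ago1-27 under submergence.

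Detoxification and export form a group of 8 members. UGT73B4 and UGT73B5 are glycosyltransferases that attach sugars to small molecules, and their genes are next to each other in the genome. UGT73B4 gave 3.45, 5.2 and 6.21 in submerged ago1-27 and 7.68, 3.77 and 6.98 in dark ago1-27, against 355, 541 and 924 in submerged wild type and 325, 1228 and 683 in dark wild type. UGT73B5 gave 24.4, 52.7 and 9.63 in submerged ago1-27 and 28.3, 27.8 and 36.6 in dark ago1-27, against 475, 758 and 1230 in submerged wild type and 546, 2629 and 2066 in dark wild type. Both were below the limit on all 6 ago1-27 arrays. GSTU25, a glutathione transferase, was likewise below it throughout ago1-27, with means of 517 under submergence and 378 in the dark in wild type. AT4G19880, a glutathione transferase family member, was the brightest of the group, with means of 1229 and 819 in submerged and dark ago1-27, against 13183 and 19089 in submerged and dark wild type. AT1G60730 is an aldo-keto reductase, an enzyme type that reduces reactive carbonyls, and AT3G23550, AT2G04050 and AT5G52050 are MATE transporters, which move small molecules out of the cytosol. The gaps of the 8 ran from 2.38 to 5.41.

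Enzymes that use oxygen or peroxide account for 5 members. AT1G20270 and AT3G28480 are prolyl 4-hydroxylases, which use oxygen to hydroxylate proline in cell wall proteins. AT1G20270 gave 126, 143 and 169 in submerged ago1-27 and 111, 96.8 and 126 in dark ago1-27, against 2374, 2397 and 2072 in submerged wild type and 1953, 1898 and 2302 in dark wild type. AT3G28480 had means of 715 and 644 in submerged and dark ago1-27, against 7602 and 8577 in submerged and dark wild type. AT4G20830, an oxidase of cell wall oligogalacturonides, was 20.6-fold lower in ago1-27 under submergence and 28.2-fold lower in the dark. Prx37, a peroxidase of the cell wall, and AT4G38540, a FAD-dependent monooxygenase, were 25.1-fold and 8.81-fold lower under submergence. In 4 of the 5 no ago1-27 array was below the limit, so these differences were measured at both ends. Prx37 was the exception, with ago1-27 means of 69.3 under submergence and 84.0 in the dark, so its fold is less certain.

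Calcium and defence genes make up 12 members. They hold the calmodulin-like calcium sensors AT3G01830 and CML37, the defensin LCR67 and the chitinase AT1G02360. Also among them are the TIR-domain proteins AT1G57630, AT1G72920 and AT2G32140, the leucine-rich repeat kinase AT1G51850, the RIN4-like AT3G48450, the VQ protein AT2G22880 and the cysteine-rich transmembrane proteins AT1G56060 and AT2G32190. TIR domains are signalling modules of plant immune receptors. Group means in ago1-27 were 3.57 to 112 under submergence and 3.10 to 146 in the dark, against 317 to 2950 under submergence and 230 to 4413 in the dark in wild type. In 8 of the 12 all ago1-27 arrays lay below the limit, and no member was above it on every ago1-27 array. AT1G57630 showed a wide range, with 67.2, 71.8 and 6.09 in submerged ago1-27 and 24.4, 74.4 and 116 in dark ago1-27, against 1469, 1512 and 2253 in submerged wild type and 2162, 5653 and 5422 in dark wild type.

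Regulators account for 8 members: WRKY6, the NAC protein AT3G12910, the B-box zinc finger protein AT2G47890, the FCS-like zinc finger protein AT1G74940, AT4G33980, known as COR28, the RING protein AT1G74870, ARL and AT1G59660, a nucleoporin-like protein. COR28 is a cold-induced partner of the circadian clock, and ARL promotes cell expansion in leaves. ARL was the brightest in ago1-27, at 1225, 1185 and 981 under submergence and 1193, 1303 and 1349 in the dark, against 8884, 8217 and 8423 in submerged wild type and 8251, 10184 and 9161 in dark wild type. Its fold was nearly the same in each condition, 7.56 under submergence and 7.16 in the dark, and its replicates were close together. AT3G12910 lay at the other end: all 6 ago1-27 and all 3 submerged wild-type arrays were below the limit, and it was not tested.

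Metabolism, cell wall and protein folding hold 18 members. Sugar metabolism is represented by AT5G51830, a fructokinase, and AT2G17280, of the phosphoglycerate mutase family. AT5G51830 gave 189, 229.9 and 226 in submerged ago1-27 and 177, 191 and 146 in dark ago1-27, against 1230, 1635 and 1576 in submerged wild type and 1700, 4432 and 2661 in dark wild type. AT2G17280 gave 86.1, 76.3 and 205 in submerged ago1-27 and 189, 149 and 159 in dark ago1-27, against 1650, 1905 and 2166 in submerged wild type and 2395, 3735 and 4606 in dark wild type. In both, every dark wild-type array exceeded every submerged one.

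The other members of this group act on walls, lipids, proteins and small molecules. They are AT4G30380, the pectin acetylesterase AT3G09405, the carboxypeptidase scpl16, the lipocalin TIL, the small heat shock protein AT5G51440, the J-domain co-chaperone AT1G56300, the mitochondrial carrier AT5G26200 and the glycolipid transfer protein AT4G39670. The rest are the hydrolases AT4G31020 and AT1G08310, the acetyltransferases AT2G32020 and AT2G32030, the methyltransferase AT3G54150, AT1G52200 of the PLAC8 family, AT2G23680 of the cold acclimation protein family and the membrane protein AT5G35735. TIL, which binds lipids at membranes and is known for heat and oxidative stress tolerance, gave means of 1729 and 1519 in submerged and dark ago1-27, against 9718 and 10750 in submerged and dark wild type. Its fold, 5.61 under submergence, lies near the low end of the measured range.

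No role is given here for 30 named members: AT1G63530, AT2G41730, AT4G39675, AT3G23170, AT5G22530, AT2G28755, AT5G28610, AT4G02170, AT1G62840, AT3G46280, AT1G69680, AT5G20790, AT1G76600, AT3G21080, AT4G28460, AT1G72800, AT1G19020, AT4G18540, AT1G67600, AT4G32630, AT1G61260, AT5G11090, AT3G27570, AT1G10140, AT4G26460, AT3G19240, AT3G43250, AT3G59910, AT5G12930 and AT3G02840. Their gaps ran from 2.00 to 4.59, and 15 of them were below the limit on all 6 ago1-27 arrays. AT3G43250 was below it on all 12 arrays, so its gap of 2.12 rests on signals of 1.33 to 48.9 alone, and it was not tested. The 84 members with no single gene had gaps from 2.01 to 6.36, a spread like that of the named ones.

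Of the 88 with 1 gene, 3 pairs are direct neighbours among annotated genes: UGT73B5 and UGT73B4, AT2G32020 and AT2G32030, and AT4G39670 and AT4G39675. The first pair encodes related glycosyltransferases and the second related acetyltransferases, and related neighbours can share probe binding. AT2G32020 gave means of 23.0 and 22.4 in submerged and dark ago1-27, against 498 and 353 in submerged and dark wild type.

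Submergence, which the rule did not use as such, moved few members. In ago1-27 7 of 170 tested members changed (4.12%), 2 higher and 5 lower, against a background of 8.38% of all tested probe sets called, 4.19% higher and 4.19% lower (limma, adjusted p under 0.05). In wild type 6 changed (3.53%), 3 higher and 3 lower, against 7.08% of all, 4.71% higher and 2.37% lower. The median log2 change was -0.06 in ago1-27 and -0.09 in wild type, against 0.06 and 0.07 for all tested probe sets. At an unadjusted p under 0.05 the counts were 31 in ago1-27 (18.2%, background 25%) and 23 in wild type (13.5%, background 22.5%). The rule uses the extreme arrays of each genotype, so these counts are not independent of the selection, whose part in them was not tested. Quartiles of the log2 change in ago1-27 were -0.46 and 0.34 for members, against -0.21 and 0.32 for all tested probe sets. In wild type they were -0.50 and 0.21 for members, against -0.16 and 0.32 for all. Every submerged array exceeded every dark one in 11 members of ago1-27 (6.40%, background 14.9%) and 11 of wild type (6.40%, background 12.1%). The reverse held for 24 members of ago1-27 (14.0%, background 11.3%) and 16 of wild type (9.30%, background 8.59%).

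**Figure D4:**
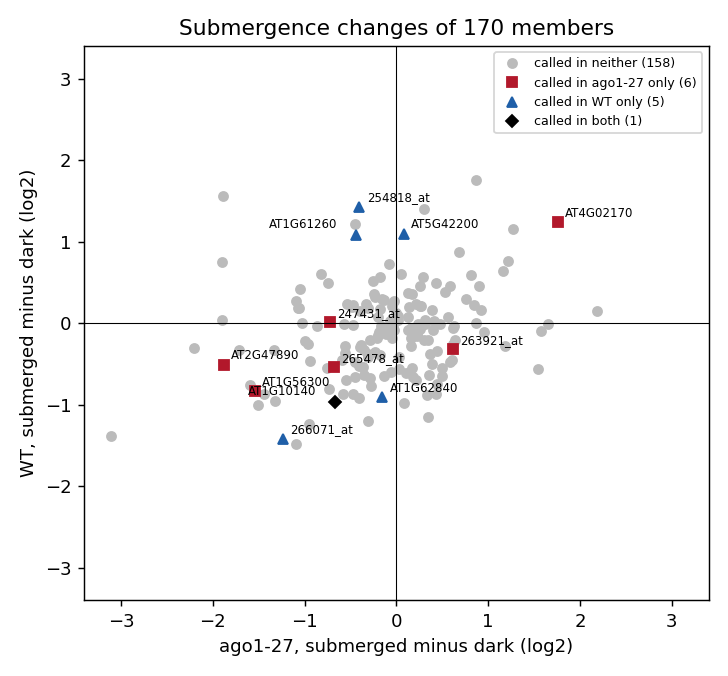
Log2 change with submergence in ago1-27 (horizontal axis) and in wild type (vertical axis) for the 170 tested members, 1 point each. Most points lie near the origin, 158 were called in neither genotype, 6 in ago1-27 only, 5 in wild type only, and AT1G10140 in both.

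AT1G10140, of unknown function, fell under submergence in both genotypes. It gave 337, 369 and 323 in submerged ago1-27 and 478, 645 and 524 in dark ago1-27, with a log2 change of -0.67 ± 0.16 (SE, limma adjusted p = 0.023). In wild type it gave 3005, 3847 and 3593 submerged and 6360, 8184 and 6016 dark, with a change of -0.97 ± 0.16 (limma adjusted p = 0.0039). In each genotype every submerged array lay below every dark one. The wild-type call held in 23 of 23 alternative settings, and the ago1-27 call was lost without replicate 1 or 3 of submerged ago1-27 or replicate 2 or 3 of dark ago1-27 (limma adjusted p of 0.051 to 0.11).

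Among the members called in ago1-27, AT2G47890, a B-box protein of the CONSTANS-like family, fell most. It gave 14.5, 16.2 and 20.6 submerged and 51.9, 75.6 and 61.2 dark in ago1-27, a log2 change of -1.88 ± 0.36 (SE, limma adjusted p = 0.0092), and 555, 571 and 1190 submerged and 609.7, 1562 and 1149 dark in wild type. All 6 ago1-27 signals were below the limit, and the call was lost with a floor at the 25th percentile, where the change was -0.72, or a pseudocount of 50, where it was -0.75. AT1G56300, the J-domain protein, gave 24.4, 37.9 and 43.7 submerged and 69.3, 119 and 121 dark in ago1-27, a change of -1.54 ± 0.30 (SE, limma adjusted p = 0.011). In wild type it gave 579.9, 697 and 884 submerged and 889, 1705 and 1339 dark, a change of -0.84 ± 0.30 that did not pass (limma adjusted p = 0.12). Its ago1-27 call was lost without replicate 2 or 3 of dark ago1-27 (limma adjusted p of 0.057 and 0.058).

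AT4G02170 rose in ago1-27, with 46.3, 20.4 and 38.6 submerged and 8.29, 7.55 and 15 dark, a log2 change of 1.76 ± 0.36 (SE, limma adjusted p = 0.012). In wild type it gave 1121, 829 and 627 submerged and 367, 343 and 353 dark, a change of 1.24 ± 0.36 just short of the threshold (limma adjusted p = 0.058). Submerged arrays exceeded dark ones in both genotypes. All its ago1-27 signals lay below the limit, and the call was lost with the floor (0.31), with the pseudocount (0.49), without the wild-type arrays in the fit, or without replicate 2 of dark ago1-27 (limma adjusted p = 0.058).

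A further 3 probe sets, without a gene name, were also called in ago1-27. 263921_at rose, with 1195, 1314 and 1631 submerged and 953, 849 and 879 dark in ago1-27, a log2 change of 0.62 ± 0.13 (SE, limma adjusted p = 0.017), and gave 7075, 6624 and 6644 submerged and 9207, 9002 and 7324 dark in wild type. 265478_at fell, with 550.0, 352 and 336 submerged and 668, 592 and 675 dark in ago1-27, a change of -0.68 ± 0.17 (limma adjusted p = 0.030), and gave 3792, 4232 and 4052 submerged and 6400, 5895 and 5314 dark in wild type. 247431_at fell, with 18.2, 17.9 and 28.3 submerged and 34.3, 40 and 30.5 dark in ago1-27, a change of -0.73 ± 0.20 (limma adjusted p = 0.042), and gave 2094, 2075 and 2028 submerged and 2291, 2121 and 1763 dark in wild type. Of the 3, 247431_at alone lay below the limit on all ago1-27 arrays, and with the floor its change was 0.05 (limma adjusted p = 0.88). The calls of 263921_at, 265478_at and 247431_at were lost in 2, 8 and 15 of 23 alternative settings.

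In wild type AT1G61260, of unknown function, rose under submergence. It gave 100.2, 107 and 113 submerged and 116, 144 and 182 dark in ago1-27, against 2331, 1673 and 2607 submerged and 900.1, 1188 and 1011 dark in wild type. The log2 change was -0.44 ± 0.20 in ago1-27 (SE, limma adjusted p = 0.19) and 1.08 ± 0.20 in wild type (limma adjusted p = 0.0077), and the wild-type call held in 23 of 23 alternative settings. It was the 1 member called for a difference between the genotypes' responses, -1.52 ± 0.28 (SE, limma adjusted p = 0.046), or 0.588% of members against a background of 0.284%, with 0.142% in each direction. At an unadjusted p under 0.05, 18 members differed (10.6%, background 14.8%). AT1G61260 was 20.3-fold lower in ago1-27 under submergence and 7.08-fold lower in the dark. Leaving out any 1 array ended this call except replicate 2 of submerged or replicate 1 of dark wild type, with adjusted p up to 0.16.

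254818_at gave 444, 343 and 369 submerged and 589, 610.0 and 360.1 dark in ago1-27, against 11726, 17168 and 6619 submerged and 3911, 5107 and 3445 dark in wild type, where it rose by 1.43 ± 0.30 on the log2 scale (SE, limma adjusted p = 0.016). AT1G62840, of unknown function, gave 73.2, 60 and 61.7 submerged and 62.9, 80.1 and 74.2 dark in ago1-27, against 582, 751 and 765 submerged and 880.4, 1920 and 1309 dark in wild type, where its log2 change was -0.91 ± 0.24 (limma adjusted p = 0.042). 266071_at, which matches several genes, gave 60, 60.1 and 71.0 submerged and 171, 122 and 161 dark in ago1-27, against 766, 978 and 838 submerged and 1009, 3607 and 3297 dark in wild type, where its log2 change was -1.42 ± 0.37 (limma adjusted p = 0.037). In all 3 the wild-type groups did not overlap. Their calls were lost in 4, 15 and 12 of 23 alternative settings, with adjusted p up to 0.073, 0.18 and 0.15.

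**Figure D5:**
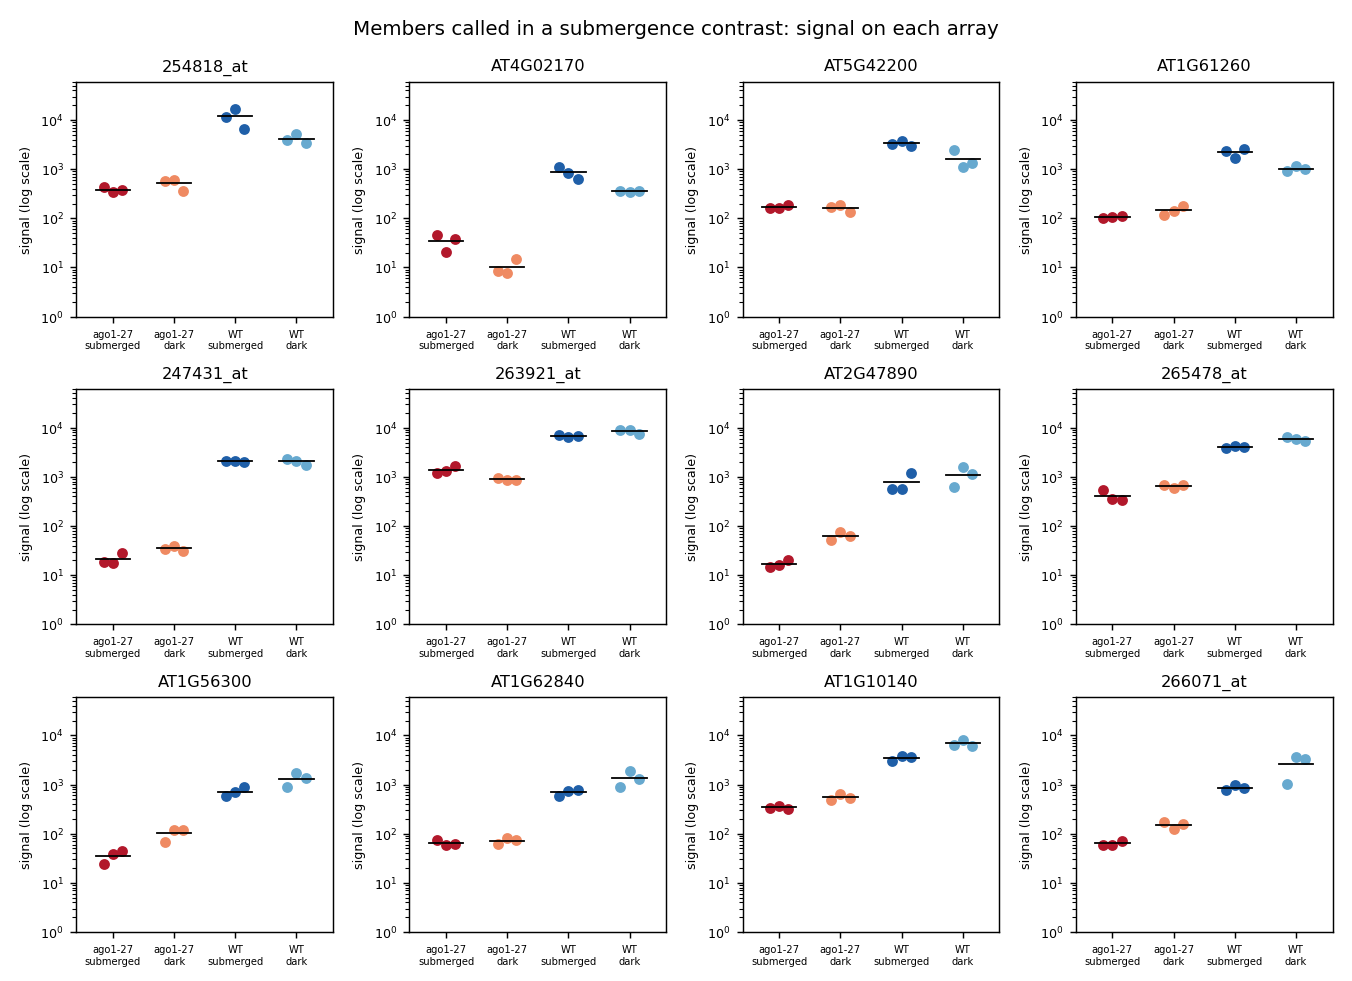
Signal (log scale) on each array for the 12 members called in a submergence contrast, with points for the 3 replicates and lines for group means. The ago1-27 points lie below the wild-type points in every panel, as the selection requires, and the distance between submerged and dark points varies among genes, from 0.01 on the log2 scale for 247431_at to 1.43 for 254818_at in wild type.

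The wild-type counts depended on single arrays, and most on replicate 1 of dark wild type. Without replicate 1 of dark wild type, 34 members changed with submergence in wild type (20.0%, background 16.9%), 31 of them lower, and 9 differed between genotypes in their response (5.29%, background 4.90%). Without that array and replicate 3 of submerged ago1-27, 15 changed in ago1-27 (8.82%, background 10.5%), 51 in wild type (30.0%, background 26.1%), 45 of the 51 lower, and 17 differed in the response (10.0%, background 8.10%). The members' median change in wild type was then -0.34, against 0.13 for all tested probe sets. Lower signal in submerged than in dark wild type then included UGT73B5 (-1.61 ± 0.38), AT2G17280 (-1.13 ± 0.16), AT5G51830 (-1.23 ± 0.21), AT3G09405 (-1.26 ± 0.20) and AT4G20830 (-0.61 ± 0.15). Higher signal was called for AT5G42200 (1.44 ± 0.16) and AT2G17850 (0.64 ± 0.17) of the low-oxygen list. Both were among the 17 that differed in the response, at -1.41 ± 0.22 and -1.13 ± 0.25 (limma adjusted p = 0.0053 and 0.018). These values were chosen after the arrays' correlations were known. Replicate 1 of dark wild type held the lowest wild-type value for 49.4% of members, against 14.5% of all probe sets. Leaving it out therefore bears unequally on members and other probe sets, and its part in the direction of these changes was not tested. The share of lower calls among all tested probe sets was not counted in these settings.

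Further lists give the genotype difference against the background of 17.8% of tested probe sets lower in ago1-27 under submergence and 20.8% in the dark. PDC2 and AT2G04050, which met the selection rule, are counted in them, and nothing is read from those. Of 6 named genes of glycolysis and fermentation, 4 were lower under submergence and 4 in the dark, with 1 and 0 higher. Of the 4, PDC2, which was set aside, and AT4G17260 are also on the low-oxygen list. The others were GAPC2, a glyceraldehyde phosphate dehydrogenase, at -0.75 ± 0.09 in each condition, and TPI, triose phosphate isomerase, at -0.30 ± 0.10 under submergence and -0.39 ± 0.10 in the dark. Of 7 tested genes of the mitochondrial stress response, 5 were lower in ago1-27 under submergence and 7 in the dark, and none was higher. In AT2G04050, AT2G41380 and AT5G09570 all ago1-27 signals lay below the limit. The bounds for AT2G41380 and AT5G09570 were at least 2.82-fold and 1.56-fold lower under submergence. The MATE transporter AT2G04050 is the member on that list, with 4.40, 35.5 and 24.9 in submerged ago1-27 and 32.4, 14.6 and 22.3 in dark ago1-27, against 485, 354 and 852 in submerged wild type and 696, 623 and 226 in dark wild type. Of 3 named genes of heat and oxidative stress, STZ, a zinc finger repressor, was lower in ago1-27, at -3.70 ± 0.39 under submergence. AT1G53540 and AT2G29500 also passed the test in both conditions, but all their ago1-27 signals lay below the limit. The bound for AT1G53540 under submergence was at least 1.06-fold lower, and AT2G29500 has no fold there. Of 5 named genes of starvation, 2 were higher and 1 lower in ago1-27 under submergence, and 4 were higher and 1 lower in the dark. The lower one, GAT1_2.1, lay below the limit on all ago1-27 arrays. Its bounds were at least 1.41-fold lower under submergence and 1.31-fold in the dark. Of all tested probe sets, 26.7% were higher in ago1-27 under submergence and 32.1% in the dark.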

How the data were processed

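The authors summarised probes of 12 ATH1 arrays by MAS5, a method named without a version in the submitters' processing notes. The deposited values are linear intensities, 1 per probe set, and a trimmed mean of 500 on every array shows scaling to a common target. No detection calls or raw probe values were used here, and depth does not apply to arrays, whose number limits precision.

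Intensities were taken as log2. A probe set entered the tests when it exceeded its array's 40th percentile on at least 3 arrays, which left 14812 of 22746 without the 64 controls. limma 3.58.1 in R 4.3.3 fitted 4 group means, its variance prior following mean intensity (residual degrees of freedom 8, prior 4.61), and p was adjusted by Benjamini-Hochberg over all tested probe sets. Errors of changes are standard errors of the fit. Bounds set the wild-type mean log2 signal against the mean log2 limit of the group's ago1-27 arrays. Replicate numbers were not treated as pairing the arrays.

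The annotation used names 1 gene for 13513 probe sets, and all 88 members with 1 gene matched RefSeq, which was used for names and gene order only. The members, the gene lists and the roles were chosen with earlier results of these data known. Every member with 1 gene is named. Values on each array are given for members of the low-oxygen list, the 12 widest gaps, members called for submergence and those at the threshold, and others shown were picked after their values were seen. The low-oxygen, glycolysis and fermentation, starvation, mitochondrial stress, heat and oxidative stress, leaf, root and flower lists are reported in the text. Of the other lists, the ethylene list has no named gene here, and the 1 named jasmonate gene was higher in ago1-27 in both conditions. A search of promoters was not run. Alternatives changed the filter, normalization, floor, pseudocount, variance model, array weights, arrays in the fit and replicate block, or left out arrays. The code was tested on simulated data.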

Additional observations from a re-analysis of the deposited data

Results flagged for a closer look

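AT1G61260 was picked out because its response to submergence differed between the genotypes by the test of that difference: the change in ago1-27 minus that in wild type was -1.52 ± 0.28 on the log2 scale (SE, limma adjusted p = 0.046). The call held in 9 of 22 alternative settings, with adjusted p from 0.0041 to 0.16 over them. Its direction was kept in all 22.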

How the results depend on the processing

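Low-oxygen genes lower in ago1-27 numbered 21 of 22 in both conditions under every alternative run, but that list overlaps the selection. Of the other counts, 172 members became 108 with a pseudocount of 50 and 271 without the 2 arrays that stand apart, and 174 to 241 when arrays were left out in turn. The highest, 241, was without replicate 1 of dark wild type, and 199 was without replicate 3 of submerged ago1-27. Members changed by submergence in ago1-27, 7 as reported, were 4 with the pseudocount, 22 with array weights, 15 without both arrays and 1 to 15 leaving out arrays in turn, with 1 and 2 without replicates 2 and 3 of dark ago1-27. In wild type the 6 became 11 with the floor, 11 with the pseudocount, 49 with array weights, 10 with the replicate block, 51 without both arrays and 2 to 34 leaving out arrays in turn, with 2 without replicate 1 or 2 of submerged or replicate 3 of dark wild type. Members differing in response, 1 as reported, were 0 without a filter, 2 with the stricter filter, 0 with median centring, 2 with the floor, 0 without the trend, 23 with array weights, 2 with the replicate block, 17 without both arrays and 0 to 9 leaving out arrays in turn. Under array weights the shares of members were 12.9%, 28.8% and 13.5% for ago1-27, wild type and the response, against 18.2%, 29.8% and 12.1% of all tested probe sets. The 1 reversal was 247431_at in ago1-27 with the floor, at 0.053, whose signals all lie below the limit. The cause of the other shifts was not tested. The median change of members in ago1-27 turned to 0.13 with the floor, from signals that it raises.

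The replicate block raised the ago1-27 count to 8. Same-numbered arrays had residual correlations of -0.28 to 0.35, above 0.1 in 8 of 18 pairs, and 7 of 12 arrays correlated best with their own number, so the numbers were not taken to pair the arrays. Signals below the limit bound what can be said of 69 members in ago1-27.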
